A study of Mus musculus with 6 samples.

Results

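The miR-23/27/24 microRNAs of the mouse dentate gyrus were followed through 4 TaqMan assays, those for mmu-miR-23b, mmu-miR-24, mmu-miR-27a and mmu-miR-27b (mmu stands for mouse and is left out below), out of 381 assays on the card. The assays were chosen by name, with the values of the comparison of the study already known, so their differences between groups are given as a description and no test of them is made. The assay for miR-23a is the remaining microRNA of these clusters on the card and is given beside them as a partner outside the 4 chosen. All 4 chosen assays, and that for miR-23a, had a threshold cycle (Ct) below 35 in each of the 6 libraries, as had 281 microRNAs in all.

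Each library holds RNA of the right dentate gyrus of a single male C57/Black6J mouse aged 6 to 8 weeks, taken 72 h after the injections. The saline group (3 mice) received intraperitoneal saline, and the KA-SE group (3 mice) received repeated low doses of kainic acid, a glutamate receptor agonist, until status epilepticus. Only mice with long severe seizures entered the KA-SE group, and the labels name no transgene or deletion. The dissected tissue holds neurons, glia and vessels together, so more cells of a type and more RNA per cell cannot be told apart. A Ct is the PCR cycle at which the signal of an assay crosses a set level, and a lower Ct means more RNA. The level of a microRNA was taken as the number of cycles by which it came up before or after U6, a small nuclear RNA, within 1 library (the Ct of U6 less that of the microRNA), on a log2 scale. The value closest to 0 is the highest.

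MicroRNAs of this group come from a pair of paralogous clusters, miR-23a, miR-27a and miR-24-2 in the first and miR-23b, miR-27b and miR-24-1 in the other, each made as a single primary transcript that is cut into separate hairpins. They are known from endothelial cells, where they act in vessel sprouting, and from several other tissues. In the injured or developing brain the miR-23 and miR-27 microRNAs are known as repressors of proapoptotic genes, such as Apaf1, Bbc3 (Puma) and Pmaip1 (Noxa), and miR-27 microRNAs also repress Pparg, a regulator of lipid metabolism.

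In RefSeq genes of the mouse assembly GRCm38.p6, the miR-23a cluster lies on chromosome 8 in the order Mir23a, Mir27a and Mir24-2, within 404 bases of the plus strand and inside no other annotated gene. The miR-23b cluster lies on chromosome 13 in the order Mir23b, Mir27b and Mir24-1, within 792 bases of the plus strand and inside the span of Aopep, an aminopeptidase gene. The deposited tables name no build, and these positions are those of the RefSeq sequences. Mature sequences were matched for 4 of the 5 microRNAs. They are shown because the paralogs are so alike that the assays must tell close sequences apart, with the seed (bases 2 to 8, which pair with target mRNAs) in capitals:
miR-27a: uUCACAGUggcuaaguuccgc
miR-27b: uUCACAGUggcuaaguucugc
miR-23a: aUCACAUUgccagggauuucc
miR-24: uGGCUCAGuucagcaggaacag
Counted from the 5′ end of miR-27a, the paralogs miR-27a and miR-27b differ by C19U and share the other 20 of 21 bases, so both have the same seed. That seed was found in 2 of 1679 mature mouse names in RefSeq, these being miR-27a and miR-27b. Between miR-23a and miR-27a the seeds differ by U7G alone, while 10 of 21 bases differ over the whole length. The seed of miR-24 is unrelated to either and stands in 5 of the 1679 names. Whether the assay for miR-27a also reads miR-27b, or the reverse, was not tested.

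The hairpins are shown with the mature microRNA in capitals, because they tell which assays can be traced to a single cluster:
Mir27a, chr8:84208672-84208758, plus strand: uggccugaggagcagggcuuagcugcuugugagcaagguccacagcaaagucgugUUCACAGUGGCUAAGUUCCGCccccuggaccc
Mir27b, chr13:63300712-63300784, plus strand: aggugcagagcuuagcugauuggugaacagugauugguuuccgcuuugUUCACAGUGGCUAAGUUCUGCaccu
Mir24-2, chr8:84208815-84208921, plus strand: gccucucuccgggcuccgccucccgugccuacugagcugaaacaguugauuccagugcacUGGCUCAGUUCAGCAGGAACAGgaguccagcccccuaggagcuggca
Mir24-1, chr13:63301208-63301275, plus strand: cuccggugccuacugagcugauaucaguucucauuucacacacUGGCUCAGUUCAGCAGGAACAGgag
The assay for miR-24 reads a mature microRNA that is the same from Mir24-1 and Mir24-2, so it sums both clusters. miR-27a can come from the chromosome 8 cluster only and miR-27b from the chromosome 13 cluster only.

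Saline replicate 2 stood apart from the rest of the libraries. Over the 281 microRNAs tested, the distance from U6 to the mean microRNA was 11.8 cycles there and 9.96 to 10.2 cycles in the 5 remaining libraries, and its microRNAs came up a median of 2.23 cycles later than the mean of saline replicates 1 and 3. This delay was 3.35 cycles for miR-27a, 2.75 for miR-27b, 1.79 for miR-24 and 1.52 for miR-23b, so the members with the larger delay are also those with the larger differences over U6. The Ct of U6 itself ran from 12.8 to 13.9. Over U6, 87.2% of the 281 microRNAs had a positive log2 difference (KA-SE minus saline), with a median of 0.62, and 62.6% had one without saline replicate 2, with a median of 0.12. All 4 members were positive with all libraries and 3 of 4 without this one. Log2 differences of the members are therefore given with and without this library and stand against these medians.

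miR-27a, of the chromosome 8 cluster, had the largest difference of the 4 members. Its raw Ct in replicates 1, 2 and 3 was 22.98, 26.70 and 23.71 in the saline mice, against 22.05, 22.90 and 22.65 in the KA-SE mice. All 3 KA-SE libraries thus crossed the threshold earlier than any saline library, by 0.083 cycles at the closest pair, as was the case for 9.61% of the 281 microRNAs (with 0.356% later). Over U6 the level was -10.09, -12.82 and -10.31 in the saline mice, against -9.27, -9.33 and -9.32 in the KA-SE mice. The KA-SE mice lay within 0.061 cycles of each other, above every saline mouse, as for 19.2% of the 281 microRNAs, while the saline mice spread over 2.73 cycles with replicate 2 the lowest. The mean level was -11.07 ± 1.52 (SD, n = 3) for saline and -9.31 ± 0.034 (SD, n = 3) for KA-SE, giving a log2 difference of 1.77 (standard error from limma 0.75), or 3.40-fold. Without saline replicate 2 it was 0.89 (standard error 0.19), or 1.86-fold. Groups that do not overlap stay so when a library is left out.

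miR-27b, its paralog from chromosome 13, went the same way with a smaller difference. Its level over U6 was -8.64, -10.59 and -8.49 in the saline mice, against -8.16, -8.04 and -8.35 in the KA-SE mice. The groups did not overlap, but the closest saline and KA-SE mice were 0.143 cycles apart. The log2 difference was 1.06 (standard error 0.63), or 2.08-fold, and 0.38 (standard error 0.20), or 1.30-fold, without saline replicate 2. In raw Ct the groups overlapped, where the Ct of 21.54 of saline replicate 1 lay below the 21.61 and 21.68 of KA-SE replicates 2 and 3.

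miR-24, the product of both clusters, had the lowest Ct of the group, at 15.80, 17.68 and 15.98 in the saline mice, against 15.58, 15.98 and 15.90 in the KA-SE mice. A Ct also depends on the assay itself, so this is no measure of abundance against the other members. Over U6 the level was -2.91, -3.80 and -2.58 in the saline mice, against -2.79, -2.41 and -2.56 in the KA-SE mice. The KA-SE values lay around those of saline replicates 1 and 3, and the groups overlapped. The log2 difference was 0.51 (standard error 0.47), or 0.15 (standard error 0.23) without saline replicate 2.

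miR-23b, which shares the chromosome 13 transcript with miR-27b, showed no such shift. Its level over U6 was -10.25, -10.65 and -9.49 in the saline mice, against -10.20, -10.07 and -10.07 in the KA-SE mice. Every KA-SE value lay inside the saline range. The log2 difference was 0.019 (standard error 0.46), or -0.24 (standard error 0.28) without saline replicate 2. The partner miR-23a, which shares the chromosome 8 transcript with miR-27a, had levels of -9.43, -10.98 and -9.65 in the saline mice, against -10.23, -9.38 and -9.65 in the KA-SE mice. Its groups overlapped as well, with a log2 difference of 0.27 (standard error 0.55), or -0.21 (standard error 0.30) without saline replicate 2.

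**Figure D1:**
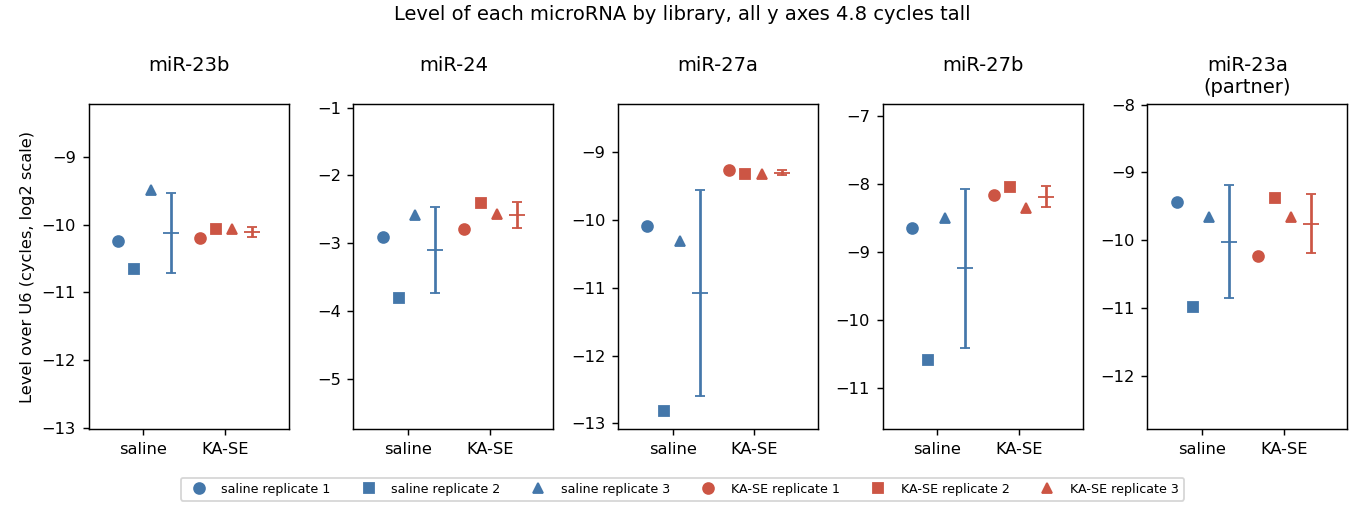
Level over U6 (Ct of U6 minus Ct of the microRNA, in cycles) in each of the 6 libraries for the 4 members and for miR-23a, with the mean and SD of 3 mice beside the points and y axes of equal height. The 3 KA-SE mice lie above the 3 saline mice for miR-27a and miR-27b and overlap with them for miR-24, miR-23b and miR-23a, and saline replicate 2 is the lowest library in each panel.

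In limma, with an adjusted p under 0.05 and at least a 1.5-fold difference as the limits, 0 of the 281 microRNAs passed in either direction (0% higher and 0% lower), so 0 of the 4 members did. At an unadjusted p under 0.05, 8 of 281 microRNAs were found by limma and 6 by the methods' t-test. The groups did not overlap over U6, with KA-SE higher, for 2 of the 4 members and for 19.2% of the 281 microRNAs tested (54 higher, and 4 lower, or 1.42%). Without saline replicate 2 these 2 members had to stay separated. Neither miR-24 nor miR-23b became so, against 19.6% of all higher and 8.9% lower. With the mean Ct of all 281 as the reference in place of U6, miR-27a and miR-27b were again separated, against 12.8% of all higher and 12.1% lower. Ordered from the highest log2 difference over U6, miR-27a stood at place 18 of 281, miR-27b at 75, miR-24 at 161 and miR-23b at 245, with miR-23a at 212. With saline replicate 2 left out these places were 14, 65, 131, 237 and 232. The order of the 4 members was thus the same in both sets of libraries, with miR-27a and miR-27b above the median of all microRNAs and miR-23b below it. Neighbours in this order were set against each other by the gap within each library, described below. The order itself fixes the direction of these gaps, but not whether the groups overlap. Of the 3 neighbouring pairs, miR-27a with miR-27b and miR-24 with miR-23b differed without overlap between groups, and miR-27b with miR-24 overlapped. As background, the gap of miR-27a was higher without overlap against 65.7% of the 280 other microRNAs. This share was 10% for miR-24, and the gap of miR-23b was lower against 33.6%.

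**Figure D2:**
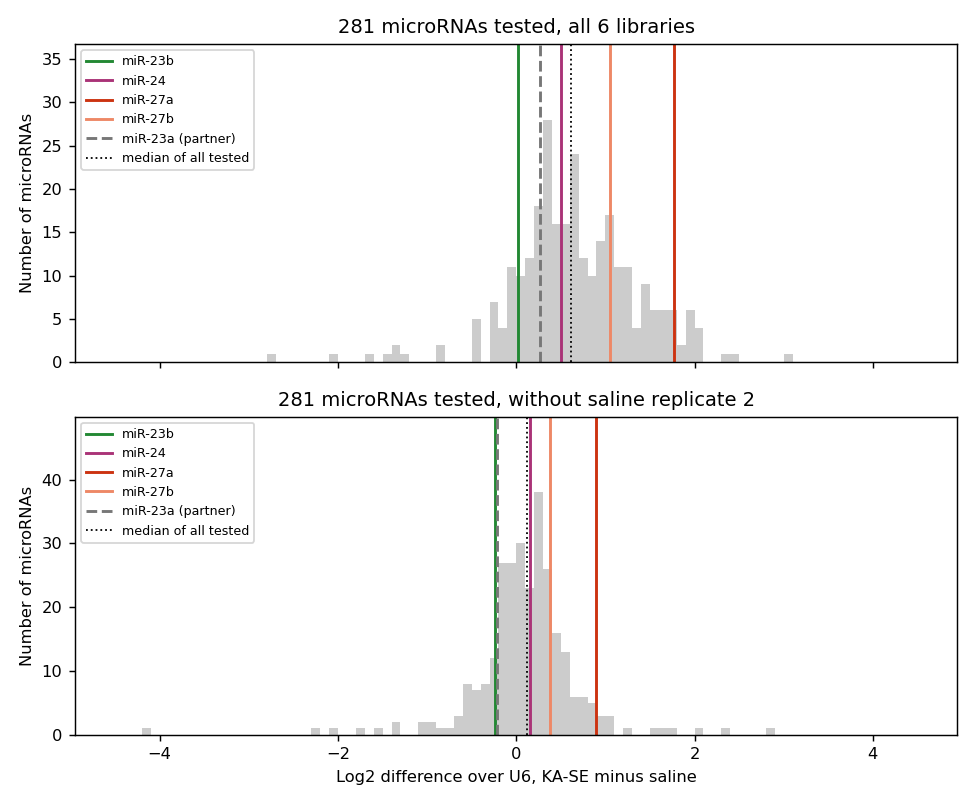
Number of microRNAs (y axis) by log2 difference over U6, KA-SE minus saline (x axis), for the 281 tested, with all 6 libraries above and without saline replicate 2 below. Coloured lines mark the 4 members and miR-23a, and the dotted line is the median of all tested, at 0.62 above and 0.12 below, with miR-27a right of the bulk in both panels.

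miR-27a and miR-27b were then compared directly, through the gap between their levels in the same library, which needs no reference RNA. The gap, miR-27a minus miR-27b, was -1.45, -2.23 and -1.82 cycles in the saline mice, against -1.11, -1.29 and -0.97 cycles in the KA-SE mice. In each KA-SE mouse miR-27a stood closer to its paralog than in any saline mouse. The mean gap was -1.83 ± 0.39 (SD, n = 3) for saline and -1.12 ± 0.16 (SD, n = 3) for KA-SE, giving a log2 difference of 0.71 (standard error 0.24), or 1.64-fold. Standard errors of gaps were taken from the SDs of the groups, not from limma. They are thus not the same measure as those of the members above. Without saline replicate 2 it was 0.51, or 1.42-fold. Only changes of a gap between libraries can be read, since its size in a single library depends on both assays.

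Against the partners the gap of miR-27a moved more. miR-27a minus miR-23b was 0.16, -2.17 and -0.82 cycles in the saline mice, against 0.93, 0.74 and 0.74 cycles in the KA-SE mice, without overlap. The log2 difference of this gap was 1.75 (standard error 0.68), and 1.13 without saline replicate 2. miR-27a minus miR-24 was -7.18, -9.02 and -7.72 cycles in the saline mice, against -6.47, -6.92 and -6.76 cycles in the KA-SE mice, without overlap. Its log2 difference was 1.26 (standard error 0.56), and 0.74 without saline replicate 2. Within the chromosome 8 cluster, miR-27a minus miR-23a was -0.66, -1.84 and -0.66 cycles in the saline mice, against 0.97, 0.047 and 0.33 cycles in the KA-SE mice. The groups did not overlap here either, with a log2 difference of 1.498 (standard error 0.48), or 2.82-fold, and 1.10, or 2.15-fold, without saline replicate 2. The difference between the groups was thus unequal for these products of the chromosome 8 transcript.

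Within the chromosome 13 cluster the gap also differed, with the miR-27 product again the one that was relatively higher after KA-SE. miR-23b minus miR-27b was -1.60, -0.068 and -0.997 cycles in the saline mice, against -2.04, -2.02 and -1.72 cycles in the KA-SE mice. The groups did not overlap, though saline replicate 1 and KA-SE replicate 3 were 0.113 cycles apart. The log2 difference was -1.04 (standard error 0.46), and -0.63 without saline replicate 2. miR-24 minus miR-27b overlapped between groups, at 5.74, 6.78 and 5.91 cycles in the saline mice, against 5.37, 5.63 and 5.79 cycles in the KA-SE mice. Its log2 difference was -0.55 (standard error 0.35), and -0.23 without saline replicate 2. miR-23b minus miR-24 was -7.34, -6.85 and -6.91 cycles in the saline mice, against -7.40, -7.66 and -7.50 cycles in the KA-SE mice, a log2 difference of -0.49 (standard error 0.17), or -0.40 without saline replicate 2, with the closest mice 0.063 cycles apart. The miR-23 paralogs did not separate, as miR-23a minus miR-23b was 0.81, -0.33 and -0.16 cycles in the saline mice, against -0.036, 0.69 and 0.41 cycles in the KA-SE mice, a log2 difference of 0.25 (standard error 0.41), or 0.032 without saline replicate 2.

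**Figure D3:**
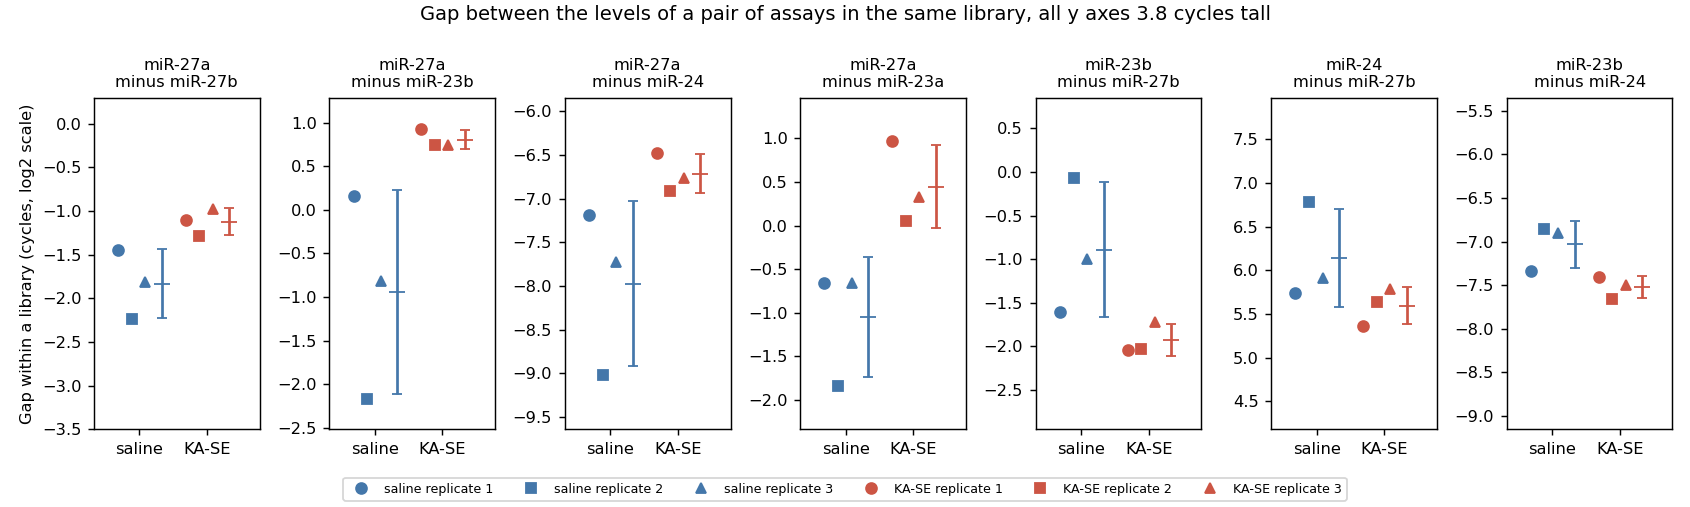
Gap between the levels of a pair of assays in the same library (cycles, log2 scale) for 7 pairs, in 3 saline and 3 KA-SE mice, with the mean and SD of each group beside the points and y axes of equal height. The 4 gaps of miR-27a lie above all saline values in each of the 3 KA-SE mice, miR-23b minus miR-27b and miR-23b minus miR-24 are lower, and miR-24 minus miR-27b overlaps.

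The gap to the other 280 tested microRNAs gives the background for these pairs. For miR-27a it was higher without overlap after KA-SE against 65.7% of them and lower against 0.357%, so its separation from its partners was shared with most of the card. For miR-27b the shares were 31.8% higher and 2.14% lower, for miR-24 10% higher and 8.21% lower, for miR-23b 1.79% higher and 33.6% lower, and for miR-23a 1.43% higher and 15.4% lower. When saline replicate 2 was left out they were 72.1% higher and 0.714% lower for miR-27a, 39.3% higher and 3.21% lower for miR-27b, and 2.5% higher and 40% lower for miR-23b. miR-27a and miR-23b therefore lay toward opposite ends of the card, with miR-24 near its middle.

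The microRNAs most alike to each member were found by the SD of the gap over the 6 libraries, a small SD meaning that both assays moved together. For miR-27a these were miR-18a (SD 0.21 cycles) and miR-19a (0.21 cycles), both from the Mir17hg cluster, known from proliferating cells, and the neuronal miR-124 (0.22 cycles), against a median SD of 0.89 cycles over the 280 other microRNAs. For miR-27b they were the rat assay for miR-1, a muscle microRNA (0.049 cycles), miR-467a (0.10 cycles) and miR-370 of the imprinted Dlk1-Dio3 domain (0.10 cycles). For miR-24 they were miR-324-3p (0.080 cycles), miR-455 (0.082 cycles) and miR-467b (0.090 cycles), and for miR-23b they were miR-99a (0.16 cycles), miR-222, known from endothelium (0.16 cycles), and miR-134, a microRNA of dendrites (0.16 cycles). Cluster partners were not among them. In the order of likeness to miR-27a, miR-27b stood at place 47 of 280, miR-24 at 148, miR-23a at 157 and miR-23b at 223, and with saline replicate 2 left out these places were 20, 101, 213 and 221. To miR-23b, its transcript partner miR-27b stood at place 169 of 280 and miR-24 at 60, or at 171 and 81 with that library left out. To miR-23a, outside the chosen 4, miR-24 stood at place 7, or 18. All microRNAs of a library share its RNA. Of the 12 closest microRNAs (3 for each member), 3 were also among the closest when saline replicate 2 was left out, these being miR-18a for miR-27a, miR-455 for miR-24 and miR-222 for miR-23b.

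Set against the global mean, that is the mean Ct of all 281 microRNAs, the level of miR-27a was 0.10, -1.01 and -0.21 in the saline mice, against 0.70, 0.64 and 0.87 in the KA-SE mice, a log2 difference of 1.11 (standard error 0.34), or 0.79 (standard error 0.18) without saline replicate 2. For miR-27b the log2 difference was 0.40 (standard error 0.24), or 0.28 without that library. For miR-24 it was -0.15 (standard error 0.30) with all libraries, on the other side of 0 from its value over U6, and 0.052 without saline replicate 2. For miR-23b it was -0.64 (standard error 0.36), and -0.34 (standard error 0.26) without saline replicate 2, negative in both sets of libraries. In all 15 alternatives run for each, miR-27a and miR-27b were positive, with miR-27a between 0.79 and 2.26 and miR-27b between 0.12 and 1.43. miR-24 kept its sign in 13 of 15 and miR-23b in 4 of 15. The replicate block is among the 15 and repeats the value over U6, so its agreement was fixed in advance. Leaving out a library over U6, or saline replicate 2 over the global mean, could not change the sign of miR-27a or miR-27b either. Their groups did not overlap with all libraries over either reference.

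**Figure D4:**
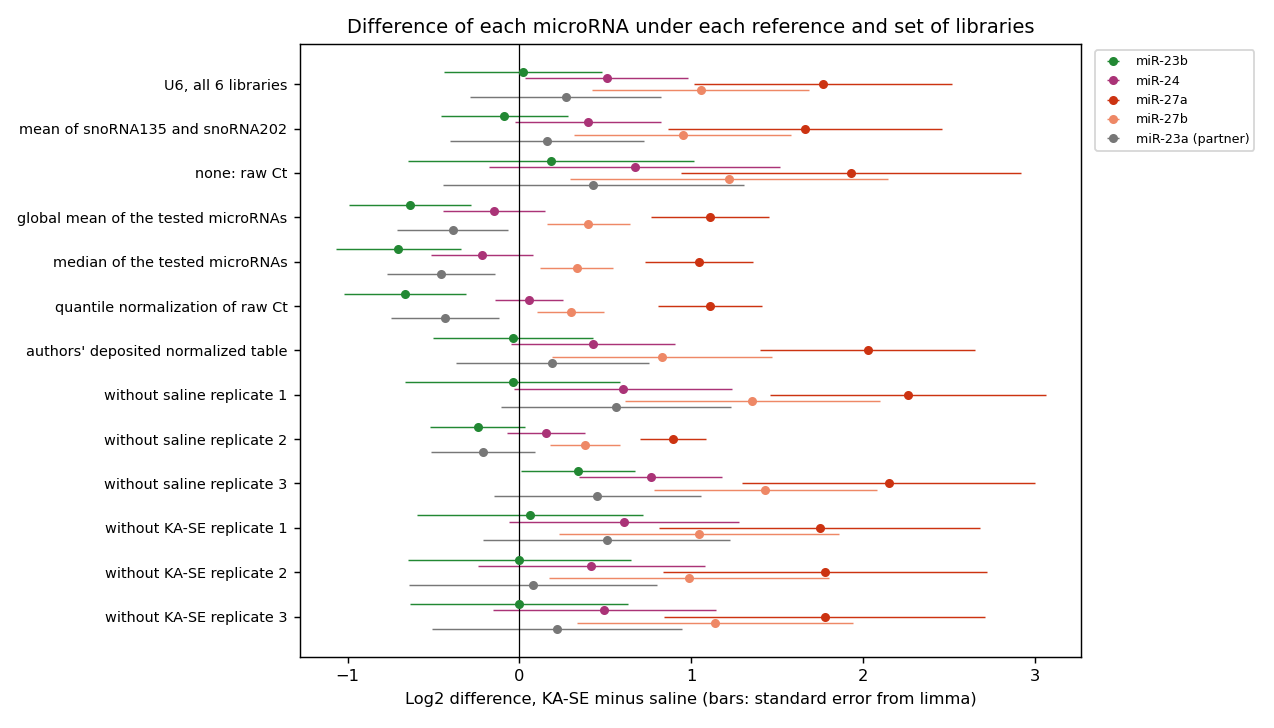
Log2 difference of each member and of miR-23a, KA-SE minus saline (x axis, bars are the standard error from limma), under each reference and with each library left out (y axis). miR-27a is right of 0 in each setting shown and right of miR-27b, while miR-23b falls on both sides of 0.

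The authors' deposited normalized table treats the 4 members differently from each other. For most values of miR-23b and miR-24, the raw Ct minus the normalized Ct equals the most common such value of the library, to within 0.0015 cycles (6 of 6 libraries for miR-24, 5 of 6 for miR-23b). For miR-27a it equals it in saline replicates 1 and 3, and exceeds it by 0.664 cycles in saline replicate 2 and by 0.571, 0.564 and 0.549 cycles in KA-SE replicates 1, 2 and 3. Each of these 4 libraries thus received a lower normalized Ct, hence a higher level, than a subtraction of 1 value per library gives. For miR-27b the excess was 0.181, 0.177 and 0.192 cycles in the saline mice, against 0.008, 0.052 and 0.054 cycles in the KA-SE mice, so that it ran the other way. For miR-23a it was 0.055 to 0.073 cycles in all 6 libraries. The mean excess of miR-27a was 0.34 cycles larger in KA-SE than in saline mice, at place 19 of 281 from the highest. The median of this difference over all 281 was -0.0097 cycles, and for 19 of them it was beyond 0.5 cycles in size. The sources used here do not give the step behind these values.

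In that table the groups of miR-27a did not overlap and its log2 difference was 2.03 (standard error 0.63), or 4.07-fold, at place 3 of 281, against 1.77 and place 18 from raw Ct over U6. Without saline replicate 2 it was 1.34, against 0.89. The log2 difference of miR-27b was 0.83 (standard error 0.64), or 0.12 without saline replicate 2, and with all libraries its groups overlapped there. The gap miR-27a minus miR-27b was -1.63, -1.75 and -2.01 cycles in the saline mice, against -0.54, -0.77 and -0.48 cycles in the KA-SE mice, a log2 difference of 1.20, against 0.71 from raw Ct, and of 1.22 against 0.51 without saline replicate 2. The change of this gap between the groups was therefore larger in the normalized table than in the raw Ct, by 0.49 on the log2 scale with all libraries. Groups did not overlap there for 20.6% of the 281 microRNAs with KA-SE higher, and for 2.85% with KA-SE lower.

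**Figure D5:**
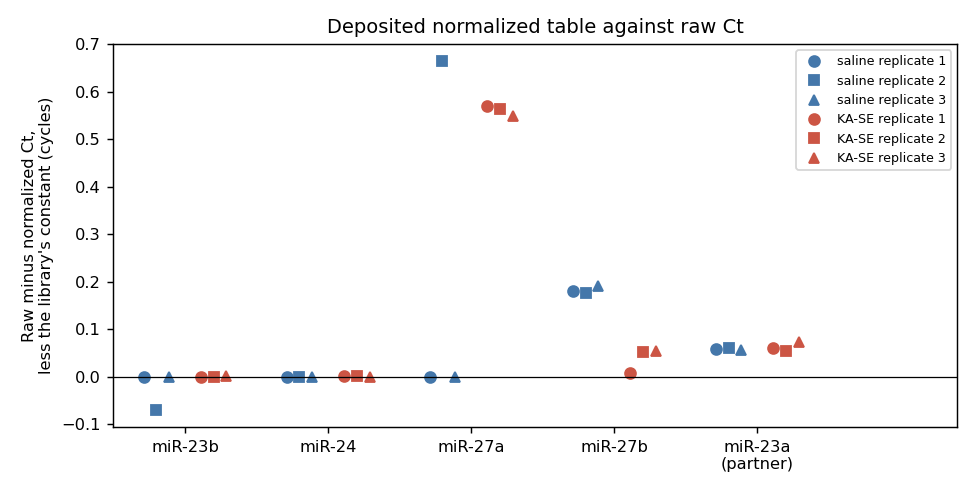
Raw Ct minus normalized Ct in the deposited tables, less the most common such value of each library (y axis, cycles), for the 4 members and miR-23a in each library. miR-27a stands 0.549 to 0.664 cycles above 0 in the KA-SE libraries and saline replicate 2 and at 0 in saline replicates 1 and 3, while miR-24 lies at 0 in all 6 libraries to within 0.001 cycles.

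Other microRNAs of the processes and cell types in which this group is known were read from lists drawn up by process and cell type. Of 18 angiogenesis-associated microRNAs tested 0 passed the test and 18 had a positive difference over U6, where 87.2% of all 281 had one, with a median log2 difference over U6 of 0.83, or 0.29 without saline replicate 2, and the examples of lowest Ct were miR-218 (1.36, or 0.40 without that library), miR-132 (0.59, or 0.46) and miR-222 (0.10, or -0.28). Of 17 associated with neuronal apoptosis 0 passed and 17 had a positive difference, with a median of 0.79, or 0.28, and examples miR-29a (0.60, or -0.087), miR-16 (0.46, or -0.021) and miR-181a (0.21, or -0.094), all 3 negative without saline replicate 2. Both medians stand against 0.62, or 0.12, over all 281 microRNAs. Of 10 listed microRNAs of endothelium and vessel wall 8 were tested, 0 passed and 8 were positive, with a median of 0.84, or 0.15, and a mean level over U6 of -11.29 to -9.14 in saline and -9.24 to -8.89 in KA-SE mice. Their defining member miR-126-3p had a log2 difference of 0.35, or -0.21 without saline replicate 2. The other examples of lowest Ct were miR-145 (0.35, or 0.23) and miR-126-5p (0.86, or 0.10). All 10 microRNAs of the neuron list were below Ct 35 in every library, with the neuronal miR-9 at a mean Ct of 15.1 over the libraries, 0 passed, 9 were positive, and their median was 1.06, or 0.38 without saline replicate 2. miR-9 had a log2 difference of 1.075, or 0.30 without that library. The other neuron examples of lowest Ct, miR-218 and miR-132, are also those of the angiogenesis list above, so these lists share members. Of the remaining lists 0 passed as well. Positive over U6 were 3 of 3 microRNAs of oligodendrocytes, 4 of 6 of leukocytes or microglia, 4 of 5 of the choroid plexus or ependyma, and 1 of 1 of erythrocytes. The median over U6 was 0.93, or 0.084 without saline replicate 2, for the 3 microRNAs of oligodendrocytes. For 6 of leukocytes or microglia it was 0.61, or 0.23, and for 5 of the choroid plexus or ependyma 0.99, or 0.097. The erythrocyte microRNA, miR-451, was at 0.70, or 0.0052. Oligodendrocyte examples were rat miR-219-2-3p (0.30, or 0.058), miR-219 (1.955, or 0.43) and miR-338-3p (0.93, or 0.084). Examples of lowest Ct for leukocytes or microglia were miR-150 (-0.065, or -0.14), miR-342-3p (-0.14, or -0.16) and miR-223 (0.070, or -0.40). Those for the choroid plexus or ependyma were miR-204 (-0.26, or -0.58), miR-34b-3p (0.21, or 0.097) and miR-211 (1.75, or 1.08). The part of any of these lists in the values of the members was not tested.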

How the data were processed

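The 6 libraries, 3 saline and 3 KA-SE, were profiled from 800 ng of total RNA each on TaqMan mouse microRNA cards. The authors deposited raw Ct, a log2 scale read downwards with 40 for no amplification, a table of Ct relative to a reference RNA that the methods name as RNU6B, and a fold change table, which holds their own comparison and was not used. The sources used here do not give instrument settings. The card has no assay of that name, and MammU6 served as the reference. Each column of values took its sample from its name, which left 0 columns over.

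Levels over U6 were fitted by limma 3.58.1 (R 4.3.3) without a block term, for the 281 microRNAs (mouse and rat assays) below Ct 35 in all libraries, with Benjamini-Hochberg adjustment. The code of the fit was also run on simulated data with independent noise and equal spread in both groups. Such data lack the shift of saline replicate 2 and the unequal spread (median SD 0.98 cycles in saline, 0.20 in KA-SE). That run therefore cannot show how the fit performs on these libraries. Members and lists were chosen with earlier results of these data known. The text names the 4 members, other assays of their precursors, the reference RNAs, the 3 microRNAs whose gap to a member had the smallest SD, and the 3 of lowest mean Ct of each list. Alternatives were other references, the normalized table, detection limits, tests, a replicate block and leaving out each library. The combination of leaving out saline replicate 2 with another reference or table, and all values of miR-23a, were added after seeing the data. Ct carries no read depth, so precision rests on 3 mice per group. RefSeq sequences are of GRCm38.p6.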

Additional observations from a re-analysis of the deposited data

How the results depend on the processing

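The count of microRNAs called by limma was 0 under every reference, test, block and set of libraries, and 1 without a filter on low values, that microRNA being miR-296-3p, at Ct 40 in all saline libraries. Counts of microRNAs with groups not overlapping, 54 higher and 4 lower over U6, were 33 higher and 46 lower over the median of the microRNAs, 34 lower over their global mean, 26 higher and 34 lower after quantile normalization, 27 higher and 1 lower in raw Ct, 8 lower over the snoRNAs and 8 lower in the normalized table. With each library left out they ran from 55 to 144 higher and from 4 to 25 lower, with 144 and 89 higher without saline replicate 3 and KA-SE replicate 3, and 25 lower without saline replicate 2, where 4 became 7, 8 and 7 without saline replicate 1, KA-SE replicate 1 and KA-SE replicate 2. Leaving out a library can keep or raise these counts but not lower them. The cause of the changes was not tested. miR-23b was -0.64, -0.70 and -0.67 over the global mean, over the median and after quantile normalization, and miR-24 was -0.15 and -0.22 over the global mean and the median. In the normalized table miR-27a minus miR-27b was 1.20, and after quantile normalization miR-23b minus miR-24 was -0.72. Leaving out each library, alone or with another reference or table, gave -0.36 to 0.34 for miR-23b, 0.038 to 0.76 for miR-24, 0.79 to 2.26 for miR-27a and 0.12 to 1.43 for miR-27b. For the gaps it gave 0.51 to 1.22 for miR-27a minus miR-27b, 1.13 to 2.30 for miR-27a minus miR-23b, 0.74 to 1.66 for miR-27a minus miR-24, -1.39 to -0.48 for miR-23b minus miR-27b, -0.75 to -0.079 for miR-24 minus miR-27b and -0.64 to -0.40 for miR-23b minus miR-24. Of 165 values of the members, miR-23a and their gaps under an alternative, 146 kept their direction. Among these are the values of the replicate block, which cannot change direction. Where groups do not overlap with all libraries, leaving out a library cannot change the direction either. The gaps are differences of the same assays, so the values are not independent of each other.

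Replicate numbers were not taken to pair the mice, since the correlations of their deviations over U6 were 0.19, 0.24 and 0.047 for numbers 1, 2 and 3, although each library correlated best with its own number. The Ct of U6 in replicates 1, 2 and 3 was 12.89, 13.88 and 13.40 for saline and 12.78, 13.57 and 13.33 for KA-SE. It thus had the same order by number in both groups. Levels over U6 remove such a shift, so these correlations cannot show it. What this shared order rests on was not tested. With the replicate block limma called 0 microRNAs, 33 passed an unadjusted p under 0.05 against 8 without it, and the standard error of the 1.77 of miR-27a was 0.80 against 0.75. The block cannot move a difference here, since each number has 1 library per group.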
